A study of Homo sapiens and Mus musculus with 16 samples.

Results

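The RNAs of the enzymes that write, copy and remove DNA methylation were followed between P-bodies and cytoplasm. These were 7 genes, TET1, TET2, TET3, DNMT1, DNMT3A, DNMT3B and UHRF1, found by symbol among the 22286 genes of the human count table, and the same 7 symbols, ignoring case, among the 15881 genes of the mouse table. All 7 had counts in every library of both tables. P-bodies are cytoplasmic condensates of RNA and protein, and they were sorted by flow cytometry from lysed cells as particles that carry LSM14A, a P-body protein, fused to GFP. The cytoplasm was the material that entered the sort: lysate cleared of nuclei was centrifuged and its pellet resuspended, so that RNA left in the supernatant was in neither fraction. The 16 libraries came from 4 cell types, with 2 P-body and 2 cytoplasm libraries in each. HEK293T (line HEK293T-LSM14a-GFP) grows from human embryonic kidney. Both the liver bud progenitors and the neurons at day 20 were derived from a human embryonic stem cell line (UCLA4-LSM14a-GFP), and mESC were mouse embryonic stem cells of the line KH2-LSM14a-GFP in serum-LIF. The culture methods of the study, which do not name this line, instead describe mouse embryonic stem cells in medium with 2 small-molecule inhibitors and LIF. All 16 libraries came from cells with the GFP fusion, which a lentiviral EF1a construct expressed in HEK293T and mESC and which was placed at the AAVS1 locus in the human stem cells, and no library lacked it. HEK293T and mESC libraries were labelled total RNA and made by a random-primed protocol, whereas liver bud progenitor and neuron libraries were labelled polyA RNA. Differences between HEK293T and the other human cells and differences between these library types cannot be told apart.

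DNA methylation in mammals is the addition of a methyl group to cytosine, mostly where a guanine follows. DNMT3A and DNMT3B set the mark on unmethylated DNA, DNMT1 copies it to the new strand after replication, and UHRF1 recognises half-methylated sites and brings DNMT1 to them. The TET enzymes oxidise 5-methylcytosine stepwise, after which the mark is lost by dilution or by base excision repair. TET1 and TET2 are prominent in pluripotent cells, TET3 is the oocyte enzyme and is also expressed in neurons, and DNMT3B is characteristic of the early embryo.

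The 3′ UTRs of several of these RNAs carry matches to the seed of miR-29, a microRNA family known for targeting both DNMT3 and TET genes. The mature human forms (RefSeq, GRCh38.p14) are printed with the seed, bases 2 to 8, in capitals, and all 3 share it.
hsa-miR-29a-3p: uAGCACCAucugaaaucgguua
hsa-miR-29b-3p: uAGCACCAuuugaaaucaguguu
hsa-miR-29c-3p: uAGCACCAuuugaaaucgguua

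In the longest coding transcript of each gene (GENCODE, hg38), the letters TGGTGCT, the reverse complement of that seed, were searched on the transcript strand. TET3 held 10 matches in a 3′ UTR of 6003 bases, TET2 held 4 in 3300 bases, TET1 held 3 in 2676 bases, DNMT3A held 4 in 6427 bases and DNMT3B held 1 in 1456 bases. DNMT1 and UHRF1 held 0. Of 17103 human genes with a 3′ UTR, 16% held at least 1 match. The share was 25.9% among 3′ UTRs like that of TET2 in length (the shorter at least 80% of the longer) and 39.4% among those like TET3, so long 3′ UTRs held matches more often. It was 22% for TET1, 40.5% for DNMT3A and 13.7% for DNMT3B. The sites of TET3 and DNMT3A, which were not higher in P-bodies of all 4 cell types, are not printed. The sites below are those of TET1 and TET2, the RNAs higher in P-bodies of all 4 cell types, and the site of DNMT3B, with the seed match in capitals and written 5′ to 3′ on the transcript strand.
TET2, chr4:105276948-105276975, plus strand: gaatcttaaaataccatcTGGTGCTgaa
TET2, chr4:105277097-105277124, plus strand: tttggatgttctaagaaaTGGTGCTaag
TET2, chr4:105277652-105277679, plus strand: tccacaaaacatgttttcTGGTGCTcat
TET2, chr4:105278213-105278240, plus strand: gcagaattcacatcatgaTGGTGCTact
TET1, chr10:68692079-68692106, plus strand: tgatagaatcactcagttTGGTGCTtta
TET1, chr10:68692196-68692223, plus strand: ttaactctacacagcttcTGGTGCTtaa
TET1, chr10:68693334-68693361, plus strand: ggagtatggaaaacctaaTGGTGCTtct
DNMT3B, chr20:32809087-32809114, plus strand: accttttactcttcttacTGGTGCTatt
The mouse 3′ UTRs (mm10) held 7 matches in Tet1, 5 in Tet2, 8 in Tet3, 5 in Dnmt3a, 1 in Dnmt3b and 0 in Dnmt1 and Uhrf1. Of 14377 mouse genes, 15.6% held one. Among mouse 3′ UTRs of like length this share was 50.9% for Tet1, 27.6% for Tet2, 44.5% for Tet3 and 47.5% for Dnmt3a. A Pumilio element, TGTANATA, occurred 3 times in TET2 and in TET3, 2 times in DNMT3A and once in TET1, and 0 times in DNMT1, DNMT3B and UHRF1, while 28.8% of human 3′ UTRs held one. Among 3′ UTRs of like length this share was 46.8% for TET2, 63.1% for TET3, 66.7% for DNMT3A and 40.9% for TET1. MicroRNAs were not measured in these libraries, and a match is a run of letters only.

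Library totals ranged from 6368953 to 17972284 counts, so that 3 counts, taken as the floor of detection, stood for 0.167 to 0.471 CPM (counts scaled to a common library total). In the cytoplasm, 8 of 8 neuron markers exceeded 1 CPM in neurons, with a summed level of 10449 to 10543 CPM, and 7 of 7 mouse stem cell markers did so in mESC. In liver bud progenitors 7 of 8 neuron markers exceeded 1 CPM too, but summed to 188 to 190 CPM. Neurons also held 6 of 6 neural progenitor markers above 1 CPM, summing to 580 to 620 CPM in cytoplasm. Liver bud progenitors went partly against their label: 7 of 8 liver bud markers exceeded 1 CPM and summed to 421 to 429 CPM, with AFP at 7.54 CPM and ALB at 0, whereas 6 of 6 pluripotency markers summed to 1207 to 1211 CPM. Their proliferation list summed to 2865 to 2908 CPM in cytoplasm, against 1556 to 1582 CPM in neurons. The 2 neuron P-body libraries differed from each other more than any other pair, with a chi-square of 24.8 per gene against 2.15 to 6.69 elsewhere. The share of ribosomal RNA genes was 3.09% to 13.4% of counts in P-bodies and 9.63% to 24.9% in cytoplasm. The part of these in the results was not tested, and in such bulk samples fewer cells of a type and less RNA per cell cannot be told apart.

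Levels are given as CPM after TMM scaling within the 4 libraries of a cell type, and between genes only per kilobase of the longest coding transcript. For DNMT1 that is 7157 bases, against a mean coding length of 3333.5, and for TET2 10166 against 7498.7. The order between genes rests on this choice and was not run with mean lengths, which the SD does not cover. Per kilobase, the cytoplasm of HEK293T held 40.8 ± 0.722 CPM (SD, n = 2) of TET2, 36.6 ± 1.01 of TET1 and 31.7 ± 1.37 of DNMT1, and the other 4 members lay under 9. TET3 at 8.56 ± 0.136 and UHRF1 at 7.84 ± 0.779 did not differ beyond their spread, and DNMT3A was lowest at 1.32 ± 0.0445. In liver bud progenitor cytoplasm TET1 led at 104.0 ± 4.74, followed by DNMT3B at 44.4 ± 3.40, DNMT1 at 35.5 ± 1.79 and TET2 at 28.5 ± 0.824, and UHRF1 was lowest at 3.28 ± 0.218. In neuron cytoplasm TET2 at 38.5 ± 0.604 and TET3 at 37.5 ± 1.76 led together without differing beyond their spread. DNMT1 followed at 28.7 ± 0.970, then TET1 at 26.8 ± 1.31, DNMT3A at 15.9 ± 0.731, DNMT3B at 13.4 ± 1.34 and UHRF1 at 5.94 ± 0.333.

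The mouse cells stood apart by the amount of Tet1 and Tet2. In mESC cytoplasm Tet2 held 484 ± 22.0 CPM per kilobase and Tet1 231 ± 10.9, above Dnmt1 at 123 ± 6.92 and Uhrf1 at 51.7 ± 5.46. Dnmt3a at 7.67 ± 0.950, Tet3 at 4.77 ± 0.133 and Dnmt3b at 2.33 ± 0.214 were far lower. By CPM, without scaling for length, Tet2 ranked 4 and Tet1 ranked 8 among the 15881 mouse genes in cytoplasm, and 2 and 4 in P-bodies. Counts per gene do not show where on a gene the reads lay. Human and mouse tables were not fitted together, so these levels stand side by side with no test.

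**Figure D1:**
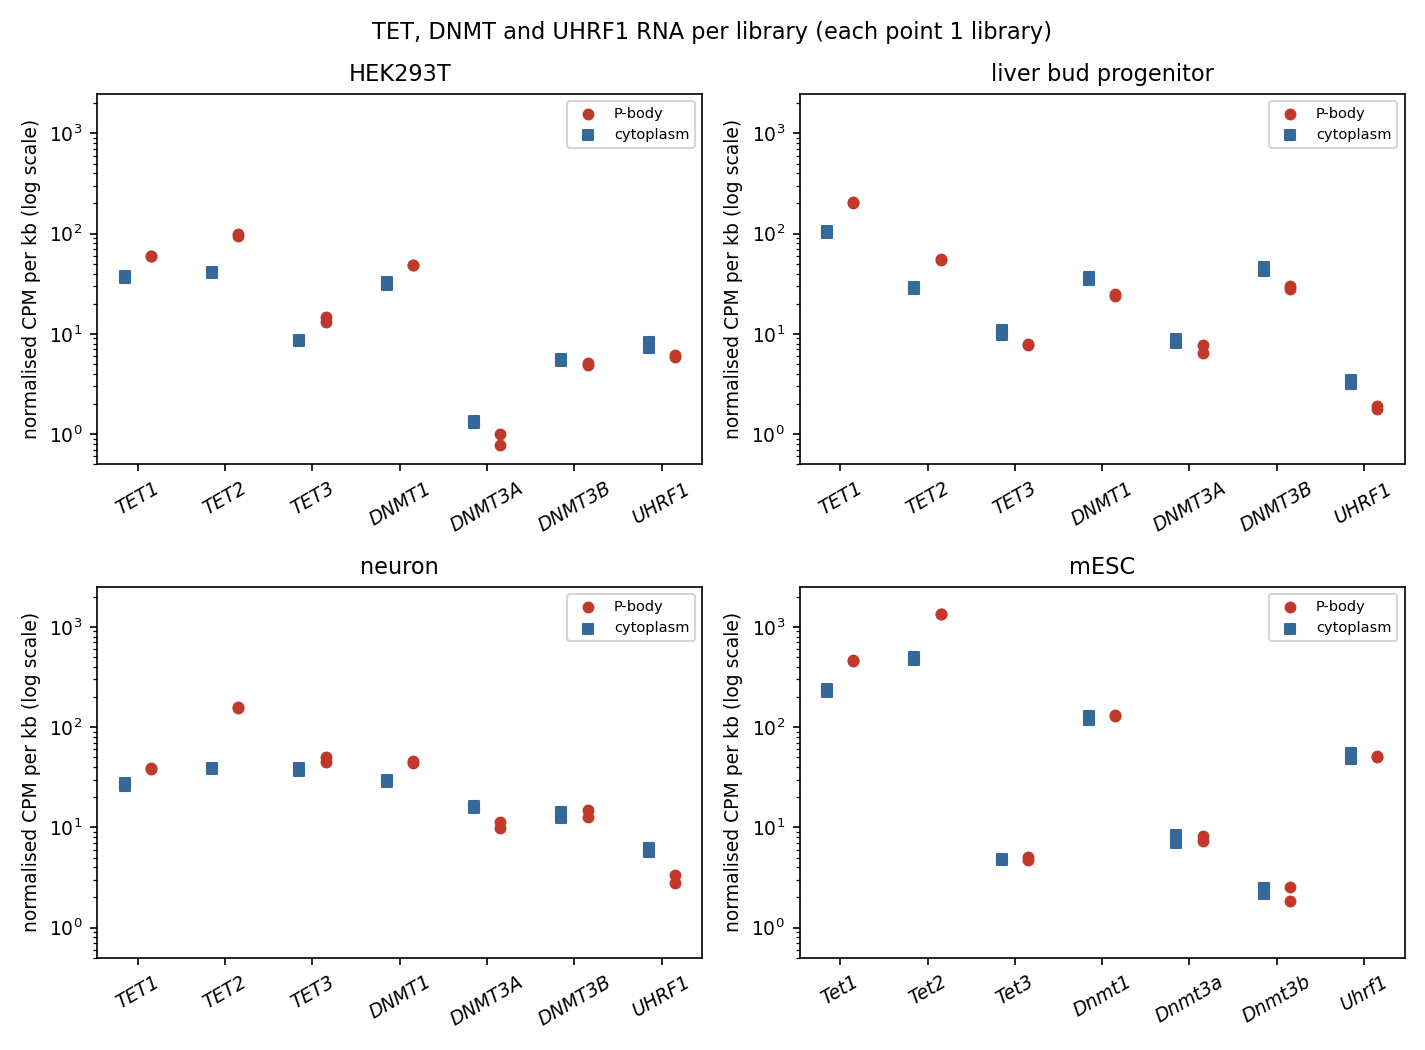
Normalised CPM per kilobase of the 7 members in every library (log axis), with P-body libraries as red circles and cytoplasm libraries as blue squares, 2 of each in every cell type. TET1 and TET2 sit higher in P-bodies in all 4 panels, and TET2 in neurons rises from 38.5 to 157.4.

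TET2 was the member most enriched in P-bodies of HEK293T, neurons and mESC, and in liver bud progenitors its ratio lay within the error of that of TET1. In neurons TET2 was at 1570 and 1630 CPM in P-bodies against 396 and 387 CPM in cytoplasm. This was a log2 fold change (FC, P-body over cytoplasm) of 2.03 ± 0.07 (SE), a 4.09-fold enrichment (edgeR, adjusted p = 2.3e-09), and every P-body library lay far above the cytoplasm. In HEK293T, TET2 was at 1013 and 954 CPM in P-bodies and 410 and 420 CPM in cytoplasm (log2 FC 1.25 ± 0.05, adjusted p = 2.03e-29). In liver bud progenitors it was at 553 and 571 CPM against 284 and 295 CPM (0.96 ± 0.06, adjusted p = 1.56e-23). The groups did not overlap in either. In mESC, Tet2 was at 12216 and 12278 CPM against 4582 and 4296 CPM (1.46 ± 0.03, adjusted p = 6.74e-21). Over genes whose mean reached 20 CPM, the log2 FC of TET2 exceeded that of 93.8% of genes in HEK293T and of 80.6% in the liver bud progenitors, and of 96.0% and 93.5% for neurons and mESC. P-body libraries lay above the cytoplasm without overlap for 31.1% of all genes in HEK293T and 31.2% in liver bud progenitors. In neurons and mESC this share was 34.9% and 33.6%.

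TET1 was enriched in all 4 cell types as well, with smaller ratios than TET2 in HEK293T, neurons and mESC. Liver bud progenitors, where TET1 was most abundant among the human cells, had 1975 and 1961 CPM in P-bodies and 1032 and 968 CPM in cytoplasm, a log2 FC of 0.98 ± 0.04 (adjusted p = 1.85e-29). mESC had 6645 and 6623 CPM of Tet1 against 3425 and 3205 CPM, a like enrichment (log2 FC 1.00 ± 0.03, adjusted p = 5.4e-18). HEK293T had 576 and 578 CPM against 359 and 345 CPM (0.71 ± 0.05, adjusted p = 9.06e-18). The fractions were separate in each of these cells, as they were for the shares of all genes given with TET2. The smallest enrichment was in neurons, with 374 and 371 CPM against 249 and 267 CPM (0.53 ± 0.09, adjusted p = 0.000395).

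TET3 changed direction between cell types. It was enriched in HEK293T, with 179 and 158 CPM in P-bodies and 102 and 104 CPM in cytoplasm (log2 FC 0.71 ± 0.07, adjusted p = 2.66e-13). It was depleted in liver bud progenitors, with 92.6 and 94.7 CPM against 119 and 131 CPM (-0.42 ± 0.08, adjusted p = 8.9e-06). In neurons, which had the most TET3, the P-body libraries held 608 and 545 CPM and the cytoplasm 468 and 438 CPM (0.35 ± 0.09, adjusted p = 0.00753). These were the separate but nearest groups among the called TET values, and without neuron cytoplasm replicate 2 the enrichment of TET3 in neurons did not pass (0.29, adjusted p = 0.108). In mESC, Tet3 was at 55.0 and 51.1 CPM against 53.0 and 51.0 CPM, overlapping groups that did not differ by the test (0.03 ± 0.09, adjusted p = 0.795).

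DNMT1, the maintenance enzyme, was enriched in HEK293T and neurons and depleted in liver bud progenitors. HEK293T had 344 and 350 CPM in P-bodies and 220 and 234 CPM in cytoplasm (log2 FC 0.61 ± 0.06, adjusted p = 6.64e-14). Neurons had 332 and 311 CPM against 201 and 211 CPM (0.64 ± 0.09, adjusted p = 0.000116). Liver bud progenitors showed the opposite order without overlap, 172 and 180 CPM in P-bodies and 245 and 263 CPM in cytoplasm (-0.53 ± 0.07, adjusted p = 3.43e-10). Of all genes in these cells, 32.9% lay below without overlap. In mESC the difference was 1.07-fold, with 765 and 783 CPM of Dnmt1 against 694 and 751 CPM (0.10 ± 0.04, adjusted p = 0.0481). That call was lost without mESC P-body replicate 1, P-body replicate 2 or cytoplasm replicate 1 (adjusted p = 0.0583, 0.083 and 0.411). It was lost with DESeq2 (adjusted p = 0.146), RLE size factors (0.0962) and filterByExpr (0.01, adjusted p = 0.788) too, and with scaling by library size alone Dnmt1 turned to -0.30.

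UHRF1, the partner that guides DNMT1, was depleted in HEK293T and neurons, where DNMT1 was enriched, and like DNMT1 in liver bud progenitors, and the genes were not tested against each other. UHRF1 in neurons was measured at 12.03 and 14.54 CPM in P-bodies and 26.6 and 24.6 CPM in cytoplasm (log2 FC -0.95 ± 0.24, adjusted p = 0.0086), and in liver bud progenitors at 7.74 and 8.18 CPM against 13.5 and 14.8 CPM (-0.83 ± 0.22, adjusted p = 0.00108). HEK293T had 26.5 and 25.2 CPM against 36.2 and 31.4 CPM (-0.39 ± 0.12, adjusted p = 0.00711). In all 3 human cell types the P-body libraries lay below the cytoplasm, on 69 to 450 reads a library. Of all genes, 33.7% in HEK293T, 32.9% in liver bud progenitors and 30.1% in neurons lay below in this way. The call in neurons was lost without neuron cytoplasm replicate 1 or 2 (adjusted p = 0.131 and 0.0627), and the call in HEK293T without HEK293T P-body replicate 2 or cytoplasm replicate 1 (0.0655 and 0.215). In mESC, Uhrf1 was at 179 and 185 CPM against 172 and 199 CPM (-0.03 ± 0.06, adjusted p = 0.75).

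The de novo enzymes were depleted or not called, and neither passed as enriched in any cell type. DNMT3A was depleted in neurons, with 93.7 and 107.0 CPM in P-bodies and 147 and 156 CPM in cytoplasm (log2 FC -0.59 ± 0.11, adjusted p = 0.00144). In HEK293T, where DNMT3A is scarce, 7.41 and 9.63 CPM stood against 12.9 and 12.3 CPM (-0.55 ± 0.18, adjusted p = 0.00967), and the call was lost without HEK293T P-body replicate 1 (adjusted p = 0.189) or cytoplasm replicate 1 (0.0655). In liver bud progenitors it was at 61.1 and 74.2 CPM against 84.8 and 77.4 CPM (-0.26 ± 0.09, adjusted p = 0.0211), a call lost without P-body replicate 1 (0.485) or cytoplasm replicate 1 (0.138) of these cells and with DESeq2 (0.110). DNMT3B was depleted in liver bud progenitors, its site of highest level, with 129 and 121 CPM in P-bodies and 182 and 203 CPM in cytoplasm (-0.63 ± 0.07, adjusted p = 3.03e-11). It did not pass in HEK293T (-0.12 ± 0.13, adjusted p = 0.553) or neurons (0.03 ± 0.15, adjusted p = 0.89). In mESC neither Dnmt3a (0.02 ± 0.08, adjusted p = 0.845) nor Dnmt3b (-0.09 ± 0.20, adjusted p = 0.75) passed, the latter on 81 to 105 reads a library.

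**Figure D2:**
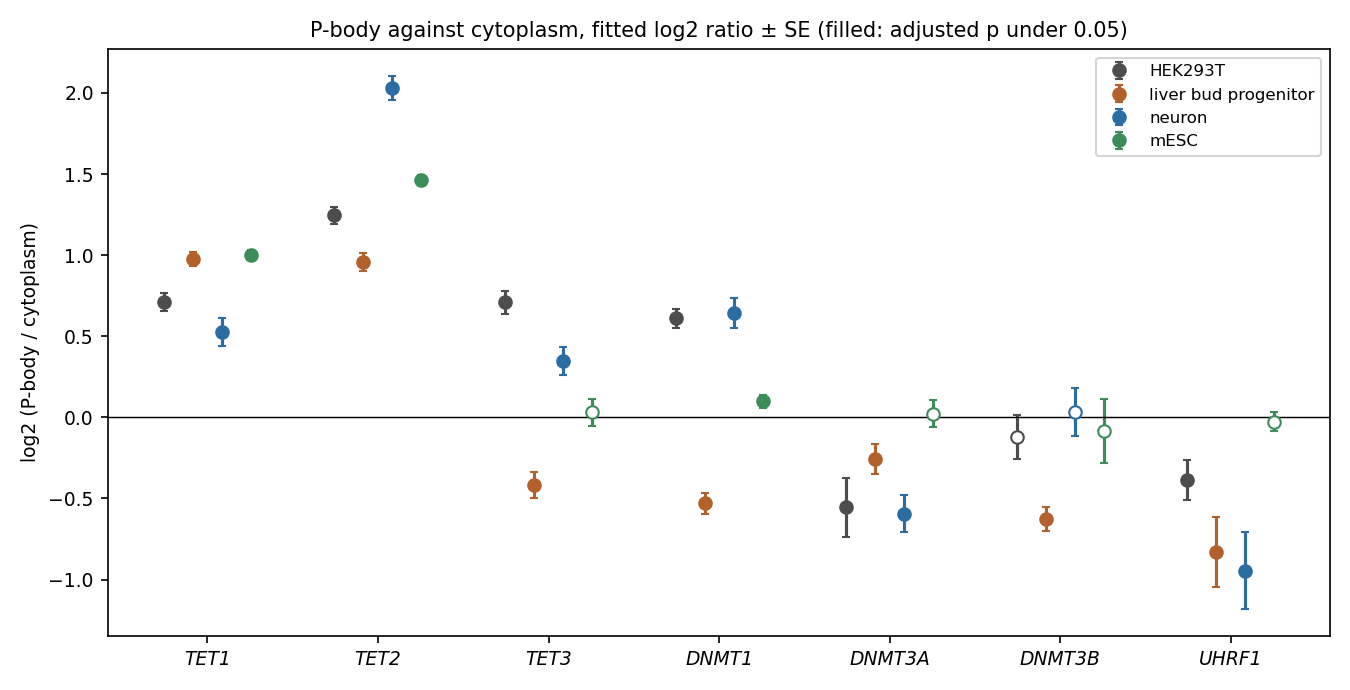
Fitted log2 ratio of P-body to cytoplasm (vertical axis) ± SE for each member, coloured by cell type, each from 4 libraries. Filled points passed an adjusted p of 0.05. TET1 and TET2 are above 0 in all 4 cell types, TET3 and DNMT1 lie on both sides, and UHRF1 is below 0 in the 3 human cell types, down to -0.95.

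By cell type, 4 of the 7 members were enriched and 2 depleted in HEK293T, where 19.3% of all genes tested were called enriched and 22.8% depleted. Liver bud progenitors had 2 enriched and 5 depleted members against 21.4% and 17.1% of all genes. Neurons had 4 enriched and 2 depleted against 14.6% and 14.1%, and mESC had 3 enriched and 0 depleted against 25.8% and 20.6%. In mESC, 0 of the 7 members were depleted at an unadjusted p under 0.05 too, and 0 with DESeq2, whereas scaling by library size alone, which moved the median of all genes by -0.40, gave 5. The median log2 FC of the members was 0.61, -0.42, 0.35 and 0.03 in this order of cells, where the median of all genes was -0.01, -0.09, 0.19 and -0.11. These shares and medians of all genes include genes with few counts. Over genes whose mean reached 20 CPM, the median was 0.25, 0.33, -0.16 and 0.28. The members thus lay above that median in HEK293T and neurons and below it in liver bud progenitors and mESC. The calls for TET1 and TET2 were kept under every alternative run, whereas the 2 depleted members of HEK293T were not called by DESeq2 and numbered 0 to 2 when each library was left out.

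The share of each paralog in its family was compared between fractions. Per kilobase, TET2 made up 64.5% ± 1.64 (SD, n = 2) of TET RNA in neuron P-bodies and 37.4% ± 0.204 in neuron cytoplasm. TET3 fell from 36.5% ± 1.34 in neuron cytoplasm to 19.6% ± 1.53 in P-bodies, although its own level was higher there. In HEK293T, TET2 was 56.6% ± 0.681 of TET RNA in P-bodies and 47.4% ± 0.923 in cytoplasm. In liver bud progenitors TET1 predominated in both, at 76.4% ± 0.494 and 72.8% ± 1.69, while the share of TET2, 20.6% ± 0.452 and 19.9% ± 1.02, differed by less than the spread. In mESC, Tet2 was 74.1% ± 0.124 and 67.3% ± 0.0249, and Tet3 was under 1% in both fractions. Exact permutation of 2 against 2 libraries cannot reach significance, and these shares carry no test.

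Among the DNMT RNAs, DNMT1 was 64.9% ± 0.518 in neuron P-bodies and 49.5% ± 1.36 in neuron cytoplasm, and 89.1% ± 0.468 and 82.4% ± 0.302 in HEK293T. It did not shift in liver bud progenitors, at 40.6% ± 1.14 and 40.1% ± 0.0844, where DNMT3B was the largest part by longest transcript. Nor did Dnmt1 shift beyond the spread in mESC, at 93.0% ± 0.591 and 92.5% ± 1.20. Mean coding lengths are nearer each other, 3333.5 bases for DNMT1 and 3544.8 for DNMT3B. These shares and the ratios that follow were not run with mean lengths, so which DNMT part is largest rests on the longest transcripts. The summed TET RNA per kilobase exceeded the summed DNMT RNA in all 16 libraries. In liver bud progenitors this ratio was 4.44 and 4.40 in P-bodies and 1.70 and 1.53 in cytoplasm, and in mESC 12.9 and 12.5 against 5.75 and 5.07. HEK293T had 3.24 and 3.03 against 2.30 and 2.17, and neurons had 3.43 and 3.63 against 1.79 and 1.75. P-body libraries thus held more TET RNA per DNMT RNA than the cytoplasm in all 4 cell types.

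**Figure D3:**
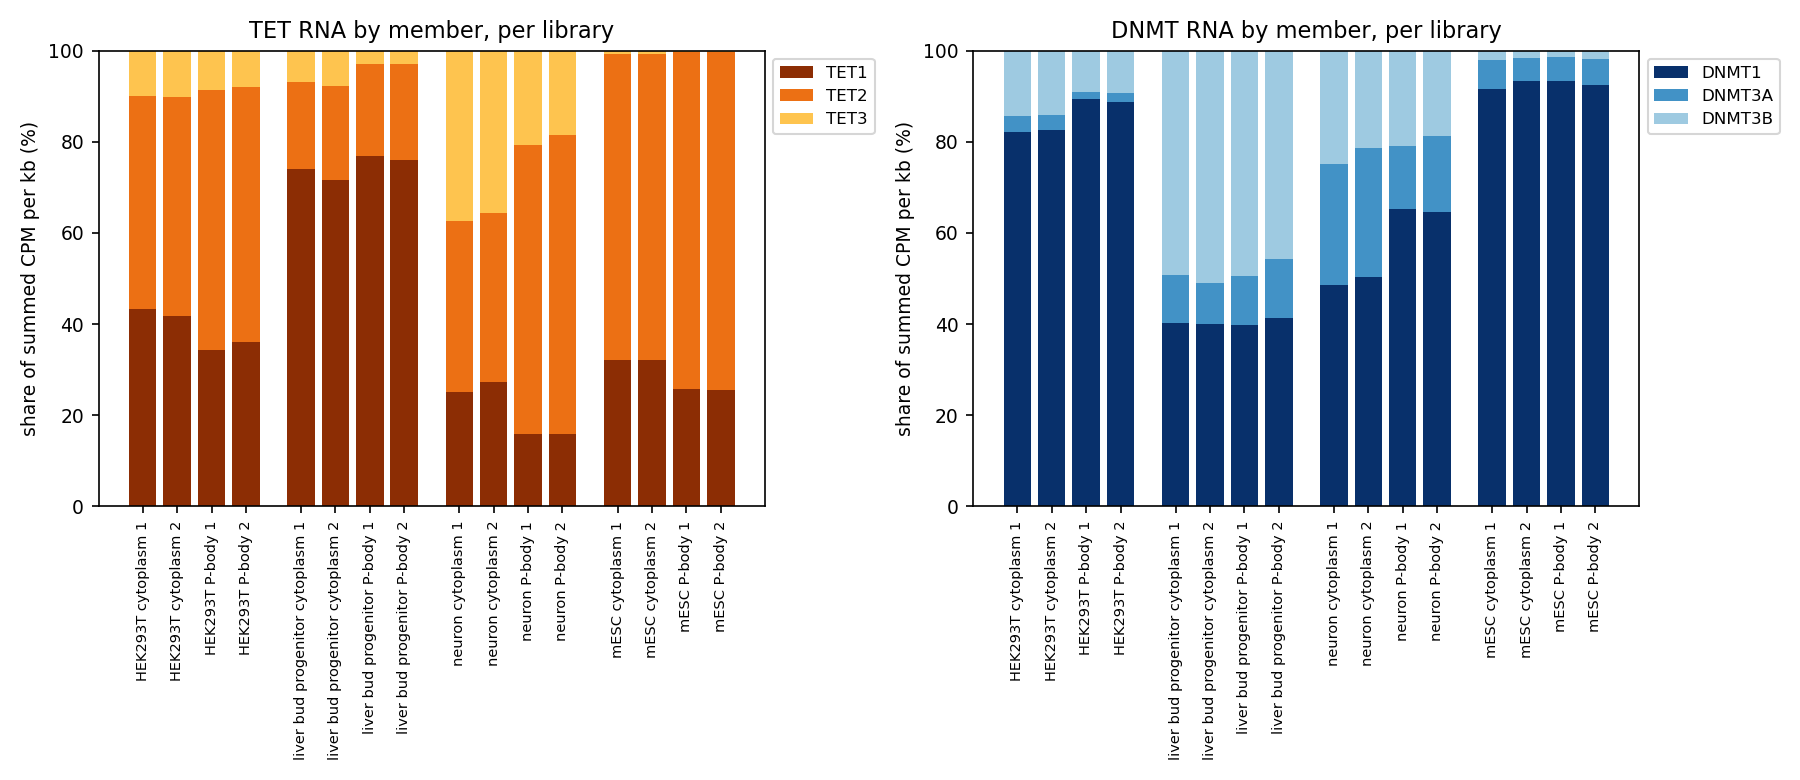
Share (percent, vertical axis) of each paralog in the summed CPM per kilobase of the TET family (left) and the DNMT family (right), 1 bar per library. The TET2 part widens from 37.4% in neuron cytoplasm to 64.5% in neuron P-bodies, and DNMT3B reaches 50.2% of DNMT RNA in liver bud progenitor cytoplasm.

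The cytoplasm was compared between the human cell types to place these ratios beside the level of each RNA. The members differed widely. Against liver bud progenitors, neurons had 4.18-fold more TET3 (log2 FC 2.06 ± 0.08, adjusted p = 2.09e-35), 2.16-fold more DNMT3A and 2.09-fold more UHRF1. TET2 was 1.56-fold higher in neurons. TET1 was 3.35-fold lower (-1.74 ± 0.07, adjusted p = 9.12e-34) and DNMT3B 2.87-fold lower (-1.52 ± 0.10, adjusted p = 1.16e-23). DNMT1 did not pass (-0.10 ± 0.08, adjusted p = 0.336). Thus 4 members were higher and 2 lower, where 26% and 25.8% of all genes were.

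Against HEK293T, neurons had 13.8-fold more DNMT3A (3.79 ± 0.11, adjusted p = 4.96e-14), 5.04-fold more TET3 and 2.81-fold more DNMT3B, and 1.19-fold less TET1, so that 3 members were higher and 1 lower, against 27.9% and 28.4% of all genes. The lower TET1 was not called without HEK293T cytoplasm replicate 1 (-0.21, adjusted p = 0.0789). Liver bud progenitors had 8.08-fold more DNMT3B than HEK293T (3.02 ± 0.10, adjusted p = 6.18e-186), 6.42-fold more DNMT3A, 2.83-fold more TET1 and 1.21-fold more TET3. TET2 was 1.44-fold lower and UHRF1 2.40-fold lower, so that 4 members were higher and 2 lower, against 27.5% and 28.5% of all genes. DNMT1 varied least between the 3 human cell types, by at most 0.16 on the log2 scale, and passed in 0 of these 3 comparisons (adjusted p = 0.336, 0.554 and 0.0701). At an unadjusted p under 0.05 it passed in 1 of them, the higher level in liver bud progenitors than in HEK293T, which was called with DESeq2 (0.22, adjusted p = 0.0209), filterByExpr (0.27), RLE size factors, library size alone and the replicate block, and without HEK293T cytoplasm replicate 2 (0.22, adjusted p = 0.0230). The higher TET3 of liver bud progenitors was not called without their cytoplasm replicate 2 (0.22, adjusted p = 0.0833). The 3 comparisons share libraries in pairs.

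The P-body to cytoplasm ratio itself was then compared between cell types by an interaction term over 8 libraries. Between neurons and liver bud progenitors, which share a library type, DNMT1 differed most, with a ratio 2.25-fold higher in neurons (log2 difference 1.17 ± 0.11, adjusted p = 4.25e-06) at a cytoplasm level that did not pass as different unless scaled by library size alone (-0.48). TET2 followed at 2.09-fold (1.07 ± 0.09, adjusted p = 9.55e-07), then TET3 (0.76 ± 0.12, adjusted p = 0.000385) and DNMT3B (0.65 ± 0.16, adjusted p = 0.011). TET1 went the other way, with the larger ratio in liver bud progenitors (-0.46 ± 0.09, adjusted p = 0.00207). DNMT3A (-0.34 ± 0.16, adjusted p = 0.171) and UHRF1 (-0.13 ± 0.31, adjusted p = 0.835) did not pass. Hence 4 members were higher and 1 lower, against 9.21% and 8.5% of all genes. The call for DNMT3B was lost when liver bud progenitor P-body replicate 2, cytoplasm replicate 2 or neuron cytoplasm replicate 2 was left out (adjusted p = 0.0653, 0.0786 and 0.108), and DNMT3A was called without neuron P-body replicate 2 (-0.56, adjusted p = 0.00401).

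With HEK293T as the reference, TET2 was more enriched in neurons (0.64 ± 0.09, adjusted p = 0.000103), and TET3 (-0.50 ± 0.12, adjusted p = 0.00862) and TET1 (-0.32 ± 0.10, adjusted p = 0.0435) less, against 6.35% of all genes higher and 6.19% lower. The call for TET1 was lost without any one of 6 of the 8 libraries, namely neuron cytoplasm 1 or 2 or any HEK293T library, and the call for TET3 without neuron cytoplasm replicate 1 (adjusted p = 0.0544) or HEK293T cytoplasm replicate 1 (0.05). UHRF1 was not called (-0.70 ± 0.26, adjusted p = 0.0918), but was without neuron P-body replicate 2 (-0.85, adjusted p = 0.0110), without ribosomal RNA genes (-0.84, adjusted p = 0.0402) and in the fit of all 12 human libraries (-0.80, adjusted p = 0.0290). The call for TET1 was also lost with filterByExpr (-0.19, adjusted p = 0.209), and library size alone turned it to 0.11 and lost that for TET3 (-0.07, adjusted p = 0.776). Liver bud progenitors had lower ratios than HEK293T for DNMT1 (-1.37 ± 0.09, adjusted p = 2.11e-17), TET3 (-1.35 ± 0.11, adjusted p = 2.61e-14), DNMT3B (-0.73 ± 0.13), UHRF1 (-0.67 ± 0.23) and TET2 (-0.51 ± 0.08). TET1 (0.04 ± 0.07, adjusted p = 0.767) and DNMT3A (0.06 ± 0.19, adjusted p = 0.883) did not pass. This made 5 of 7 members lower and 0 higher, where 15% of all genes were lower and 12.5% higher, and 0 members were higher at an unadjusted p under 0.05 or with DESeq2, although TET1 was with filterByExpr (0.22) or library size alone (0.21). The call for UHRF1 was lost without liver bud progenitor P-body replicate 1, cytoplasm replicate 2 or HEK293T cytoplasm replicate 2 (adjusted p = 0.068, 0.0636 and 0.0884), and with DESeq2 (0.0730), filterByExpr (0.0744), library size alone (0.0981) and the fit of all 12 human libraries (0.135).

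**Figure D4:**
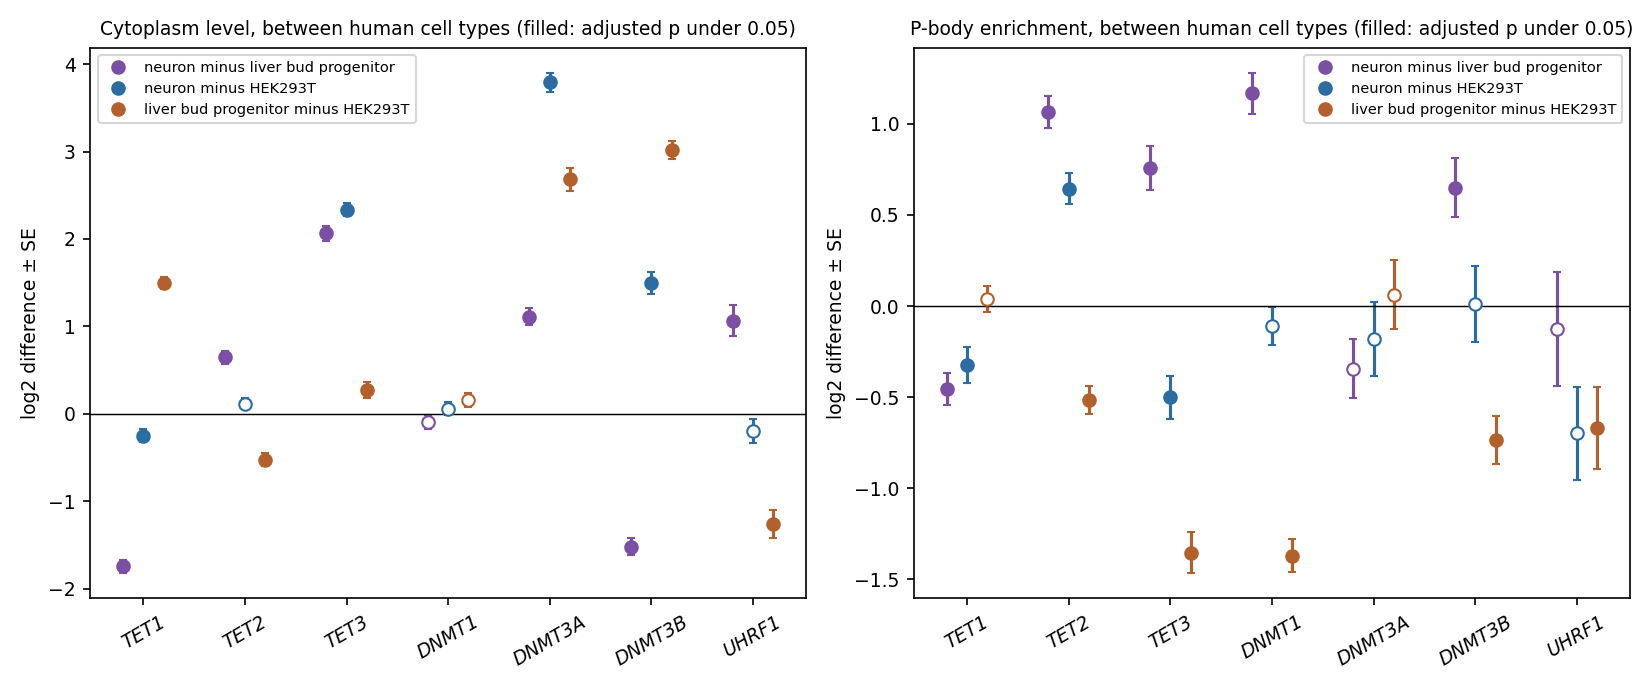
Differences between human cell types (log2, vertical axes) ± SE for each member, in cytoplasm level (left, 4 libraries each) and in the P-body to cytoplasm ratio (right, 8 libraries each). Filled points passed an adjusted p of 0.05. DNMT1 lies within 0.16 of 0 on the left, and on the right at 1.17 for neurons against liver bud progenitors and at -1.37 for liver bud progenitors against HEK293T.

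The members also differed in base composition. The longest coding transcripts of TET1 and TET2 held 42.1% and 43.1% G or C, against 53.2% in TET3 and 53.7% to 55.2% in the other 4 members. In mouse, Tet1 and Tet2 held 43.7% and 45.4%, and the other 5 lay between 51.95% and 53.95%. Across genes whose mean reached 1 CPM, the log2 P-body to cytoplasm ratio fell with this content, with Spearman's rho of -0.56 in HEK293T (12416 genes), -0.59 in the liver bud progenitors (13919), and -0.51 and -0.60 for neurons (14117) and mESC (11879). Genes are not independent replicates, and these correlations have no p. The pair of members with the lowest content was thus the pair enriched in all 4 cell types, whereas DNMT1, at 55.2%, was enriched in HEK293T and neurons. The part of base composition in the ratios was not tested.

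Transcript length varied among the members too, and its part in the ratios was not tested. TET1 (9612 bases), TET2 (10166 bases) and TET3 (12060 bases) were the longest, followed by DNMT3A (9501 bases) and DNMT1 (7157 bases), and DNMT3B (4336 bases) and UHRF1 (4309 bases) were the shortest. TET1 lies on chromosome 10 (68560337 to 68694487, plus strand), TET2 on chromosome 4 (105145875 to 105279816, plus strand) and TET3 on chromosome 2 (73984910 to 74108176, plus strand) of hg38. DNMT1 lies on chromosome 19 (10133342 to 10231286, minus strand), as does UHRF1 (4903080 to 4962154, plus strand). DNMT3A lies on chromosome 2 (25227855 to 25342590, minus strand) and DNMT3B on chromosome 20 (32762385 to 32809359, plus strand). Only TET3 shared exonic bases with another annotated gene, a long noncoding RNA on the same strand that overlaps it by 390 bases.

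Other genes of the pathway were read from 6 lists of 46 genes. Of the 45 tested in HEK293T, 19 were enriched and 16 depleted, where 19.3% and 22.8% of all genes were. The counts were 16 and 14 of 45 in liver bud progenitors (21.4% and 17.1% of all genes), 10 and 10 of 45 in neurons (14.6% and 14.1%) and 21 and 10 of 46 in mESC (25.8% and 20.6%). The same shares of all genes apply to the counts of each list that follow, which carry no test. They include genes with few counts. With filterByExpr, which drops such genes, 4434 of 13691 genes were enriched and 4766 depleted in HEK293T. Liver bud progenitors had 4268 and 4143 of 14413, neurons 3577 and 2739 of 15030, and mESC 3757 and 3424 of 12414. The median log2 FC of all these pathway genes was 0.01, 0.11, -0.03 and 0.13, beside -0.01, -0.09, 0.19 and -0.11 over all genes. Over genes whose mean reached 20 CPM, the median was 0.25, 0.33, -0.16 and 0.28, so the pathway genes lay above it in neurons only.

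Several pathway genes were enriched in all 4 cell types, as TET1 and TET2 were. They were among the genes named by smallest p. The share of all genes enriched in all 4 cell types was not taken, so this is no trait of the pathway. TDG, the glycosylase that removes the bases TET enzymes make, had a log2 FC of 1.17 ± 0.06 in HEK293T, 1.52 ± 0.08 in liver bud progenitors and 1.15 ± 0.17 in neurons (adjusted p = 4.71e-24, 6.81e-26 and 0.000152). Tdg in mESC, added after its value was seen, had 1.24 ± 0.30 (adjusted p = 0.00163). Its level there was low, 5.31 CPM in P-bodies and 2.26 CPM in cytoplasm. MAT2B, a regulatory subunit of the enzyme that makes the methyl donor S-adenosylmethionine, had 1.06, 1.49, 1.80 and 1.34 in the 4 cell types. ZBTB38, a zinc finger protein that binds methylated DNA, had 0.94, 0.77, 0.96 and 1.19. NSD1, a histone methyltransferase whose mark recruits DNMT3A, had 0.95, 0.32, 0.82 and 0.60. All passed in each cell type.

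Partners of maintenance methylation split. Here and in the lists that follow, a gene may also differ in cell types not named with it. CDCA7, which activates the remodeler HELLS, was enriched by 1.49 ± 0.06 in HEK293T, 1.11 ± 0.08 in liver bud progenitors and 1.42 ± 0.25 in neurons, whereas LIG1, the ligase of lagging-strand replication, was depleted by -0.95 ± 0.14 in liver bud progenitors and -0.88 ± 0.19 in neurons. Of these 9 genes, 3 were enriched and 5 depleted in HEK293T, 5 and 3 in liver bud progenitors, 1 and 1 in neurons and 4 and 1 in mESC, where Hells (1.12 ± 0.06) and Pcna (0.77 ± 0.05) led. Of the 8 readers of methylated CpG, 6 were enriched and 1 depleted in HEK293T and in mESC, 3 and 3 in liver bud progenitors and 2 and 3 in neurons. Among the 7 TET partners, 2 were enriched and 3 depleted in HEK293T, 2 and 2 in liver bud progenitors, 1 and 2 in neurons and 3 and 3 in mESC. OGT, a glycosyltransferase that binds TET proteins, was depleted by -0.90 ± 0.06 in liver bud progenitors. DCAF1, part of a ubiquitin ligase that acts on TET proteins, was enriched by 0.55 ± 0.06 in HEK293T, 0.95 ± 0.11 in neurons and 0.83 ± 0.04 in mESC. In liver bud progenitors DCAF1 was at 82.2 CPM in P-bodies and 86.5 CPM in cytoplasm.

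The remaining lists were mixed too. Of 11 base excision genes, 3 were enriched and 4 depleted in HEK293T, 3 and 2 in liver bud progenitors, 2 and 1 in neurons and 3 and 1 in mESC. PARP1 was depleted by -0.90 ± 0.06 in HEK293T and -0.42 ± 0.06 in liver bud progenitors, and Parp1 by -0.44 ± 0.05 in mESC. The list of de novo methylation partners, which also holds the tRNA methyltransferase TRDMT1, had 3 enriched and 1 depleted of 5 tested in HEK293T, 2 and 2 in liver bud progenitors, 2 and 1 in neurons, and 3 and 2 of 6 in mESC. TRIM28, a corepressor that brings methylation to repeats, was depleted by -0.90 ± 0.09 in liver bud progenitors and -1.18 ± 0.14 in neurons. TRIM28 was lower in P-bodies of HEK293T too, at 28.8 against 82.5 CPM, as was Trim28 in mESC, at 234 against 317 CPM. Of the 5 genes of methyl donor supply, 2 were enriched and 2 depleted in HEK293T, neurons and mESC, and 1 and 2 in liver bud progenitors, with AHCY, which clears the product of methylation, depleted by -1.61 ± 0.12 in HEK293T.

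**Figure D5:**
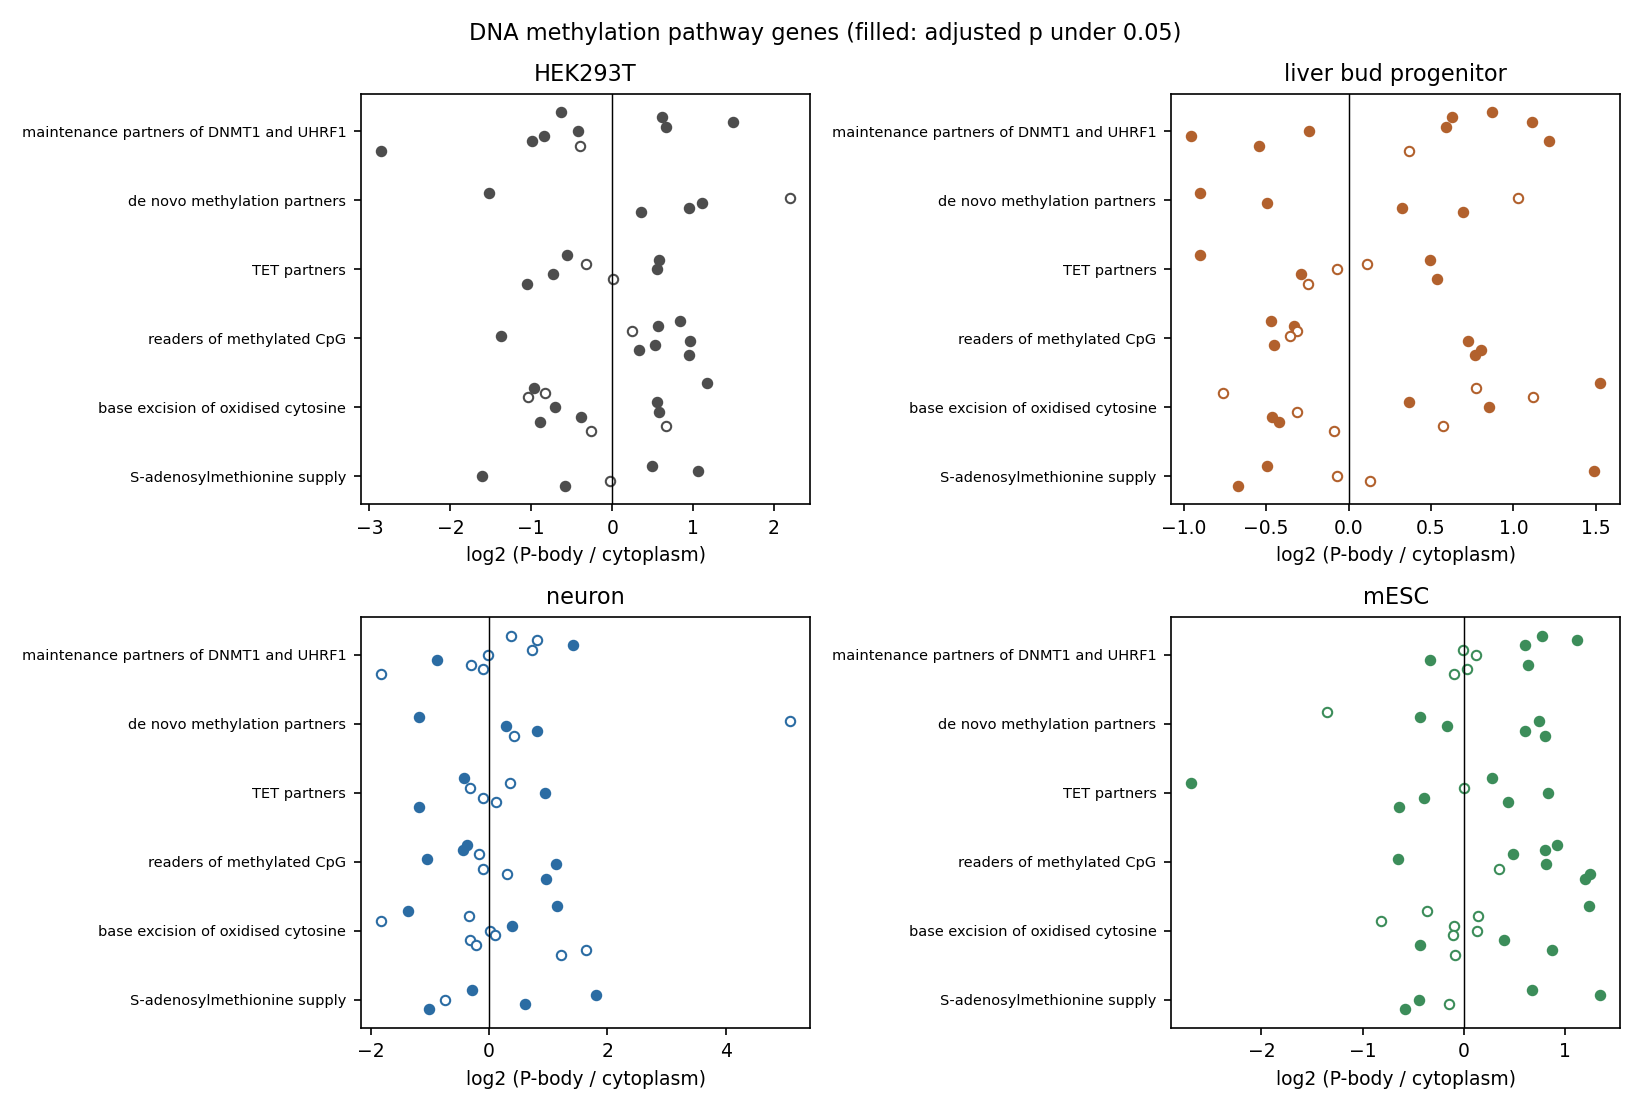
Fitted log2 ratio of P-body to cytoplasm (horizontal axes, scaled separately) for the genes of 6 DNA methylation lists (rows) in each cell type, 1 point per gene, filled where the adjusted p was under 0.05. Points lie on both sides of 0 in all 6 lists, and the open point at the far right of the neuron panel is ZFP57, at 0.413 CPM in P-bodies and 0 in cytoplasm, whose fitted ratio is no measured fold.

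Across the 12 human libraries, the genes most like each member in log2 CPM were found among 6929 genes whose mean reached 20 CPM. For TET1 these were AK3 (Pearson's r = 0.996) and BRWD3 (0.993), for TET2 MTUS1 (0.995) and MPHOSPH8 (0.990), and for TET3 MTSS1 and LIMCH1 (0.996 each). For DNMT1, the likest genes reached less, SIN3A at 0.948 and FKBP15 at 0.943. DNMT3A was most like GRIK5 (0.997) and SHROOM2 (0.995), DNMT3B most like MYOF (0.989) and FN1 (0.987), and UHRF1 most like SETD1A (0.977) and TXLNA (0.974). The libraries fall into 3 cell types and 2 fractions, which these correlations share, and they have no p.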

How the data were processed

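The values are whole-number counts of reads for each gene symbol, as deposited by the authors, for human (hg38) and mouse (mm10) with refGene annotation. Per the study's methods, random-primed libraries were quantified with salmon in an nf-core pipeline and Smart-seq libraries with hisat2 and featureCounts, so that reads of near-identical copies may be divided. Tables of the authors' own DESeq2 comparisons hold fold changes and p-values and were not used. Counts were fitted with edgeR 4.0.16 in R 4.3.3 (quasi-likelihood test, TMM, two-sided) on the libraries compared, leaving out genes at 0 in all of them, and p-values were adjusted by Benjamini-Hochberg over all genes tested, called at 0.05. Groups came from the labels. The study calls the replicates of a group biologically independent, without saying whether they were separate cultures or differentiations, so p-values measure the spread between these libraries. Floors cover counting error only. The fits were tested on simulated data. The members and lists were chosen with earlier results of these data known. Members were always described, other genes of a list by the 2 smallest p in a comparison, and likeness by the 2 highest correlations. The fits were repeated with filterByExpr, with RLE factors, with unscaled library sizes, with a replicate block, with DESeq2 1.42.0 and without ribosomal RNA genes, and with all 12 human libraries in 1 fit, each library left out, or the mean transcript length. Transcripts came from GENCODE and microRNAs from RefSeq.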

Additional observations from a re-analysis of the deposited data

Results flagged for a closer look

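The P-body to cytoplasm ratio of 6 of the 7 members differed in at least 1 of 3 comparisons of human cell types (edgeR interaction, adjusted over all genes). No share of all genes was taken over the 3 joined. UHRF1 entered only through liver bud progenitors against HEK293T. Of all genes, 9.21% were higher and 8.5% lower for neurons against liver bud progenitors, 6.35% and 6.19% for neurons against HEK293T, and 12.5% and 15% for liver bud progenitors against HEK293T. All values are log2 differences. Between neurons and liver bud progenitors, the ratio was higher in neurons for DNMT1 (1.17), TET2 (1.07), TET3 (0.76) and DNMT3B (0.65), and lower for TET1 (-0.46). Between neurons and HEK293T, it was higher in neurons for TET2 (0.64) and lower for TET3 (-0.50) and TET1 (-0.32). Between liver bud progenitors and HEK293T, it was lower in liver bud progenitors for DNMT1 (-1.37), TET3 (-1.35), DNMT3B (-0.73), UHRF1 (-0.67) and TET2 (-0.51). When single libraries were left out, calls were lost for DNMT3B in neurons against liver bud progenitors, for TET1 and TET3 in neurons against HEK293T, and for UHRF1 in liver bud progenitors against HEK293T. This UHRF1 call was also lost with DESeq2, filterByExpr, library size alone and the fit of all 12 human libraries. Against HEK293T, neurons lost the call for TET1 with filterByExpr, and those for TET1 and TET3 with library size alone. Library size alone also lost TET1 in neurons against liver bud progenitors. DNMT1 and TET3 were enriched in P-bodies of HEK293T and neurons and depleted in those of liver bud progenitors. The 3 comparisons share libraries, and those with HEK293T also cross library types, which cannot be told apart from the cells.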

How the results depend on the processing

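Of the 70 member values over 10 comparisons, 64 kept their call or lack of one with DESeq2, 68 with RLE size factors, 64 with filterByExpr, 69 without ribosomal RNA genes and 59 of 63 in 1 fit of all 12 human libraries, and 0 of these values were reversed. With library size alone 55 did. Library size alone moved the median of all genes by -0.40 in mESC, -0.18 in the liver bud progenitors, 0.17 for neurons and -0.13 in HEK293T, and by 0.35, 0.43 and 0.16 for the ratio of neurons against liver bud progenitors, neurons against HEK293T and liver bud progenitors against HEK293T. The share of higher among called genes then went from 55.6% to 28.2% in mESC, 55.7% to 44.1% in liver bud progenitors and 50.8% to 62.0% in neurons, from 52.0% to 78.9%, 50.6% to 88.2% and 45.5% to 59.4% for those ratios, and from 50.2% to 36.5% for the cytoplasm of neurons against liver bud progenitors. For the same ratios filterByExpr gave 62.9%, 65.7% and 60.8%, and for neurons against HEK293T DESeq2 gave 40.3% and removal of ribosomal RNA genes 35.5%. Under library size alone 6 values reversed: Dnmt1 (-0.30), Dnmt3a (-0.38) and Tet3 (-0.37) in mESC, the ratio of TET1 in neurons against HEK293T (0.11), and DNMT1 (-0.29) and TET2 (-0.23) in neuron against HEK293T cytoplasm. Depleted members in mESC then numbered 5, lower ratios in neurons 0 against liver bud progenitors and 0 against HEK293T, higher ratios in liver bud progenitors against HEK293T 1 (also 1 with filterByExpr), and lower members in neuron against HEK293T cytoplasm 4. With filterByExpr the neuron ratio was lower than in HEK293T for 1 member. Depleted members in HEK293T numbered 0 with DESeq2 and 1 in the fit of all human libraries. Leaving out each library gave 0 to 2 depleted members in HEK293T, 1 to 2 in neurons, 1 to 2 lower ratios for neurons against liver bud progenitors, 0 to 3 against HEK293T and 0 to 1 lower members in neuron against HEK293T cytoplasm. All genes called for the neuron fractions went from 6343 to 4001 without neuron cytoplasm replicate 1, for neurons against liver bud progenitors from 3942 to between 2419 and 6285, and for neurons against HEK293T from 2793 to between 1562 and 4871. The cause of these changes was not tested. With the mean length of coding transcripts, TET2 made up 62.2% of TET RNA in HEK293T P-bodies and 53.2% in cytoplasm, 25.8% and 24.6% in liver bud progenitors, 66.9% and 39.7% in neurons, and 60.5% and 52.5% in mESC. The shortest coding transcripts are fragments of 231 bases upward, and that length was not run. With the replicate block, 69 of 70 values kept their call or lack of one and DNMT1 became higher in liver bud progenitor than in HEK293T cytoplasm (0.16, adjusted p = 0.0218). P-bodies were sorted from the cytoplasmic fraction of the same preparation, but the labels do not say that equal numbers mark 1 preparation. Deviations of same-numbered libraries correlated at -0.09 to 0.13 across the cell types, which leaves the pairing undecided.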
